A study of Mus musculus with 6 samples.

Results

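Transcripts of 8 haem synthesis enzymes, Alas1, Alas2, Alad, Uros, Urod, Cpox, Ppox and Fech, were followed in mouse marrow cells. The 8 were chosen by name as enzymes of the pathway, and they are 8 of the 18193 genes measured. The platform annotation gave them 19 of the 34945 probe sets that name a single gene.

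Haem is an iron-containing ring made in all nucleated cells and in the largest amount in developing red cells, where it goes into haemoglobin. In myeloid cells it serves the peroxidase of granules, the phagocyte oxidase and the cytochromes of mitochondria. Synthesis starts in the mitochondrion, where Alas1 (in most tissues) or Alas2 (in red cell precursors) joins glycine and succinyl-CoA. The middle steps take place in the cytosol and include Alad, Uros and Urod, and the last steps, by Cpox, Ppox and Fech, return to the mitochondrion. The step between Alad and Uros was not analysed here.

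Expression had been measured on Affymetrix mouse arrays in 3 groups of 2 arrays each. The MN1 and MN1VP16 groups were marrow cells sorted for GFP, which marks transduction with the gammaretroviral vector pSF91-MN1-IRES-GFP in the first and pSF91-MN1VP16-IRES-GFP in the second. MN1 is a cofactor of transcription that gives rise to myeloid leukaemia when overexpressed in mouse marrow, and VP16 is the name of a viral transcriptional activator. Per the labels, the C57BL/6J donors had received 5-fluorouracil (150 mg/kg) for 4 days. Their marrow was then stimulated with cytokines for 48 hours, transduced (on virus-producing cells per the series' design text, with virus supernatant per the samples' own protocol), and given to lethally irradiated syngeneic mice, from which GFP-positive cells were sorted 4 weeks later. Gr1Mac cells were marrow cells that carried Gr1 and CD11b, which granulocytes and monocytes bear on their surface. The labels attach the same drug, culture and transplantation protocols to the Gr1Mac samples but name no vector for them, so it is not settled which of these steps the Gr1Mac cells went through. They do not say whether each array of a group stands for its own mouse. The p-values thus cover the spread between arrays, which may be technical in MN1 and MN1VP16. The 2 Gr1Mac arrays differed in sex-linked RNAs, given below, so their spread was not technical alone. Values are the authors' log2 expression values. Array medians over all deposited probe sets lay between 5.36 and 5.43, and arrays correlated at 0.981 to 0.990 within a group and 0.891 to 0.972 between groups.

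Itgam, which encodes the CD11b used for the Gr1Mac sort, had 7.67 and 6.95 log2 units in MN1, 9.44 and 8.88 in MN1VP16, against 10.95 and 10.92 in Gr1Mac. Mn1 itself had 1 single-gene probe set, which was dim on every array, from 3.63 to 4.92, and was called in no comparison, and the labels do not say whether it can detect the vector's insert. The arrays also differed in sex-linked RNAs. Xist, the RNA of the silenced X chromosome, was high on both MN1 arrays (12.36 and 12.59), low on both MN1VP16 arrays (5.53 and 5.84), and 10.44 on Gr1Mac array 1 but 5.83 on Gr1Mac array 2. The Y-linked gene Kdm5d ran the other way (MN1 3.01 and 3.20; MN1VP16 7.24 and 7.55; Gr1Mac 3.11 and 7.37). In MN1VP16 against MN1 this pattern and the vector cannot be told apart. As a guide to background, chosen after the values were seen, the highest Xist reading on an array with Y-linked signal was 5.84. The guide is strict: it lies above every array's median, and Y-linked genes on the arrays with high Xist read at most 4.05. Where a dimmer group's mean lies at or under the guide of 5.84, the fold of a called gene is given as at least a value.

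The 2 genes for the first step had different orders of group means. Alas1, the synthase of most tissues, read 10.01 and 8.83 log2 units in MN1, 10.43 and 12.08 in MN1VP16, against 11.03 and 10.93 in Gr1Mac. Both MN1 arrays thus lay below every array of the other groups, and the MN1VP16 arrays lay on either side of the Gr1Mac arrays. Alas2, the synthase of red cell precursors, read 9.11 and 10.39 in MN1, 8.85 and 7.87 in MN1VP16, against 10.98 and 9.72 in Gr1Mac. Both MN1VP16 arrays lay below every other array, and MN1 overlapped Gr1Mac. Alas2 lies on the X chromosome. On the 3 arrays with high Xist it read 9.11 and 10.39 in MN1 and 10.98 in Gr1Mac, and on the 3 arrays with high Kdm5d it read 8.85 and 7.87 in MN1VP16 and 9.72 in Gr1Mac.

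The cytosolic enzymes were brightest in MN1. Alad, which joins 2 molecules of aminolaevulinic acid, read 10.28 and 10.67 in MN1, 8.80 and 8.53 in MN1VP16, against 7.20 and 5.76 in Gr1Mac. The 3 groups did not overlap, and the span over all arrays, 4.91 log2 units, was the widest among the 8 genes. Uros, which closes the ring, read 10.63 and 11.40 in MN1, 8.61 and 8.65 in MN1VP16, against 8.38 and 7.96 in Gr1Mac. MN1 stood apart, and MN1VP16 lay just above Gr1Mac. Urod, which trims the side chains of the ring, read 11.61 and 12.22 in MN1, 10.74 and 10.16 in MN1VP16, against 9.93 and 8.95 in Gr1Mac. The groups again did not overlap.

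All of the last 3 enzymes were also brightest in MN1. Cpox had the cytosolic enzymes' order of group means, and Ppox and Fech differed from it in the place of MN1VP16. Cpox, which oxidises coproporphyrinogen, read 8.25 and 9.19 in MN1, 7.47 and 7.21 in MN1VP16, against 6.49 and 6.84 in Gr1Mac, with no overlap between groups. Ppox, which forms protoporphyrin, read 9.66 and 9.80 in MN1, 8.89 and 8.85 in MN1VP16, against 9.15 and 9.19 in Gr1Mac. Its groups did not overlap either, but its whole span was 0.95 log2 units, the narrowest of the 8, and MN1VP16 was the lowest group. Fech, which inserts the iron, read 11.31 and 11.93 in MN1, 10.44 and 9.63 in MN1VP16, against 10.99 and 10.06 in Gr1Mac. MN1 was the highest group, and MN1VP16 overlapped Gr1Mac. Group means thus ran MN1, MN1VP16, Gr1Mac from high to low for Alad, Uros, Urod and Cpox, and MN1, Gr1Mac, MN1VP16 for Ppox and Fech. The difference between MN1VP16 and Gr1Mac was called for none of these genes. Another bright probe set of Fech had means of 8.88 in MN1VP16 and 8.86 in Gr1Mac.

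**Figure D1:**
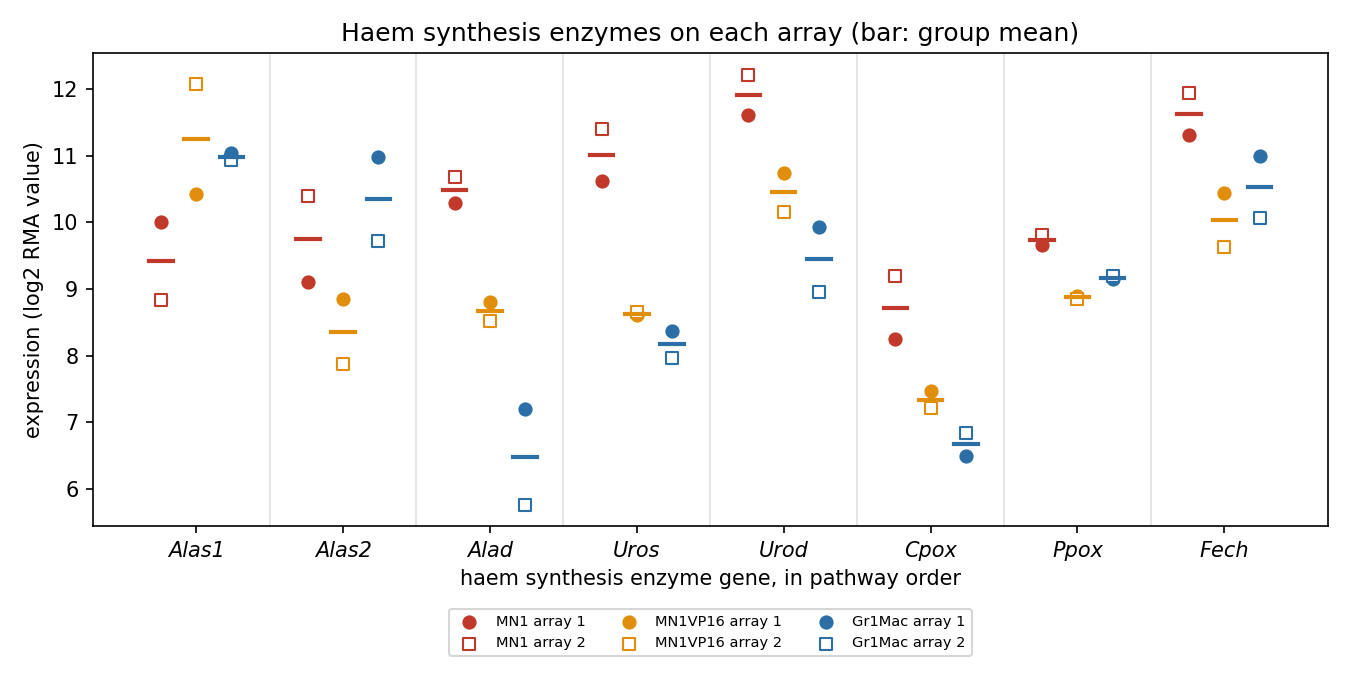
Log2 expression of the 8 haem synthesis enzymes in pathway order, with 1 point per array and the 3 groups side by side. Alad, Uros, Urod and Cpox are highest in MN1 and lowest in Gr1Mac, Alas1 is lowest in MN1 (10.01 and 8.83) and Alas2 is lowest in MN1VP16 (8.85 and 7.87).

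Sequence before the transcription starts was read for 7 of the 8 members, without Fech, as a description only. The 250 bases upstream of each start were taken from RefSeq (build GRCm38.p6) and searched on both strands for 4 forms of the letters that GATA factors bind. These were AGATAA with its near form AGATAG, as well as TGATAA with its near form TGATAG, and 26.6% of 32817 such windows hold at least one. The windows of Cpox, of the second listed start of Uros and of Alas2 held a match, and those of Alas1, Alad, Urod, Ppox and the first start of Uros held none. Counted from the start site, Cpox had 2 overlapping matches whose first bases lay at -91 and -86, Uros had 2 at -205 and -68, and Alas2 had 1 at -86. The windows with a match are shown, and the window of the most upstream start of Alas1 stands beside them as an example without a match. Of the members with a match, Cpox and Uros were called higher in MN1 than in Gr1Mac (2.05 and 2.84 log2 units) and Alas2 was not called. Of those without a match, Alad, Urod and Ppox were called higher (4.00, 2.47 and 0.57 log2 units) and Alas1 was not called. Any link between the letters and expression was not tested. Capitals mark the GATA matches. Windows lie at chr16:58669958-58670207 (plus strand) for Cpox, chr7:133702501-133702750 (minus strand) for Uros, chrX:150547167-150547416 (plus strand) for Alas2 and chr9:106247955-106248204 (minus strand) for Alas1.
Cpox: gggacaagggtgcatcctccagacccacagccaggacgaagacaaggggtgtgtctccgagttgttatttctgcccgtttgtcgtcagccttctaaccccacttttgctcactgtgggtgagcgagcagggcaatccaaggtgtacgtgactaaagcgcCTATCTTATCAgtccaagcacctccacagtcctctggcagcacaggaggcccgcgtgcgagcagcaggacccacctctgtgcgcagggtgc
Uros: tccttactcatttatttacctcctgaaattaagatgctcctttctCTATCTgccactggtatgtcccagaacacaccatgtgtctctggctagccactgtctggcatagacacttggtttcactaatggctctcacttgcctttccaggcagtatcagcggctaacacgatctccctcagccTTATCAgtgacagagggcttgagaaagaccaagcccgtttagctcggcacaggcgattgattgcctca
Alas2: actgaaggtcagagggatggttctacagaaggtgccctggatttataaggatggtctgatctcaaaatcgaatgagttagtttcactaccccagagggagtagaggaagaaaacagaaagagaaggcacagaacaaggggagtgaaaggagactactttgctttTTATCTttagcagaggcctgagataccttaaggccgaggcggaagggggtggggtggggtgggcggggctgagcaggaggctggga
Alas1: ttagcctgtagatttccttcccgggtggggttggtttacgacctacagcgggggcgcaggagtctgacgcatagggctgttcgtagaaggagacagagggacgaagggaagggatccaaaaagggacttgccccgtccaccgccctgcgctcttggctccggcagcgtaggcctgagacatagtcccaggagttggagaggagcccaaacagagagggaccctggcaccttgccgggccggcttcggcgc
A second motif, the letters CCNCNCCC of the kind read by Klf1 and related factors, stands in 45.9% of all windows. It matched 4 times in the Alas2 window and 4 times at the second start of Alad. The first start of Alad and the second of Alas1 had 2 matches each, and the first starts of Alas1 and Uros had 1 each. The windows of Urod, Cpox, Ppox and the second start of Uros had none.

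MN1 cells were first set against the Gr1Mac cells. Alad, Uros, Urod, Cpox and Ppox rose in MN1, so 5 of 8 enzymes were called higher and 0 lower by limma at an adjusted p under 0.05. Among all genes, 17.3% were called higher and 12.0% lower, 29.3% in all. At an unadjusted p under 0.05 the members' counts were 6 higher and 1 lower. The share of all genes at that unadjusted cutoff is not given for this fit, so these counts have no background beside them. The same holds for the unadjusted counts of gene lists below. The median difference of the 8 was 1.57 log2 units, against -0.06 over all genes. In 6 of the 8 both MN1 arrays lay above both Gr1Mac arrays, which held for 30.9% of all genes, and in 1 both lay below, which held for 35.8%.

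Alad had the largest difference, 4.00 ± 0.46 log2 units (SE), a 16.0-fold higher level (95% interval 7.36 to 34.8, adjusted p = 0.00269). Uros was 7.18-fold higher (4.39 to 11.8, adjusted p = 0.00207), Urod 5.54-fold (2.82 to 10.9, adjusted p = 0.00673) and Cpox 4.15-fold (2.37 to 7.26, adjusted p = 0.00666). Among the members, these are the enzymes from the second step of the pathway to the first of the closing mitochondrial steps. The step between Alad and Uros was not analysed. Ppox was 1.48-fold higher (1.15 to 1.91, adjusted p = 0.0356). Several of the 14 alternative settings gave the same fit, which left 11 distinct ones, and that call held in 1 of the 11 and was lost without either array of MN1, of MN1VP16 or of Gr1Mac, at differences of 0.49 to 0.64 log2 units and adjusted p of 0.0633 to 0.214. Uros kept its call in 11 of 11 distinct fits, and Alad, Urod and Cpox kept theirs in 10. The size of Alad's difference rested on single Gr1Mac arrays, at 4.72 log2 units without Gr1Mac array 1 and 3.28 without Gr1Mac array 2 (adjusted p = 0.00456 and 0.00939).

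The setting in which those 3 lost their call used as a term a split of the arrays that was chosen after seeing the data. In the chip's control features, both MN1 arrays and MN1VP16 array 1 formed one cluster and MN1VP16 array 2 and both Gr1Mac arrays the other. With this split, the difference was 3.72 log2 units for Alad (adjusted p = 0.0571), 1.88 for Urod (0.155), 1.80 for Cpox (0.135) and 2.88 for Uros (0.0419). Between MN1 and Gr1Mac the split follows the groups, so the 2 cannot be told apart there. Its size was taken from the difference between the MN1VP16 arrays alone. What the split stands for was not tested.

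Neither enzyme at the start nor the one at the end of the pathway was called between MN1 and Gr1Mac. Alas1 differed by -1.56 ± 0.60 log2 units (95% interval -3.04 to -0.09, adjusted p = 0.108). Its call appeared when the fit held only the 4 arrays of these groups, which is the fit that lacks either MN1VP16 array (adjusted p = 0.0356), and its difference was 0.09 with the split of the control features. Alas2 differed by -0.60 ± 0.61 log2 units (-2.09 to 0.88, adjusted p = 0.527). That sign rested on single arrays: the difference was 0.04 without MN1 array 1 and 0.03 without Gr1Mac array 1. Fech differed by 1.09 ± 0.42 log2 units (0.06 to 2.13, adjusted p = 0.109). That is its brightest probe set. Of its others, 1 was called higher (1.71, adjusted p = 0.0164). A further 1, under the background guide, was called lower (-1.20, adjusted p = 0.00519).

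The second comparison set MN1VP16 cells against the same Gr1Mac arrays, so the 2 comparisons share those arrays. By limma 0 of 8 enzymes were called higher and 0 lower, where 3.66% and 2.11% of all genes were (5.77% either way). At an unadjusted p under 0.05 there were 2 higher and 1 lower, again without a share over all genes. The median difference was 0.37 log2 units, against -0.00 over all genes. In 4 of the 8 both MN1VP16 arrays lay above both Gr1Mac arrays, against 24.8% of all genes, and in 2 both lay below, against 25.2%.

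Alad came closest to the threshold, at 2.19 ± 0.46 log2 units or 4.55-fold (95% interval 2.09 to 9.89, adjusted p = 0.0513). It passed in 4 of 10 distinct fits, among them the one without Gr1Mac array 1, where the difference was 2.90 (adjusted p = 0.0227). Its adjusted p ranged up to 0.139, and without Gr1Mac array 2 the difference was 1.47. Alas2 had the largest difference below 0, -1.99 ± 0.61 log2 units (-3.48 to -0.51, adjusted p = 0.116), and passed in 0 of 10. Urod differed by 1.01 (0.03 to 1.98), Cpox by 0.67 (-0.14 to 1.48) and Uros by 0.46 (-0.25 to 1.17). Ppox differed by -0.29 (-0.66 to 0.07) and Fech by -0.49 (-1.53 to 0.54). Alas1 differed by 0.27 (-1.20 to 1.74), and by -0.56 without MN1VP16 array 2, whose reading of 12.08 was the highest of all. These intervals leave room for differences of more than 1 log2 unit in at least one direction for every member but Ppox.

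**Figure D2:**
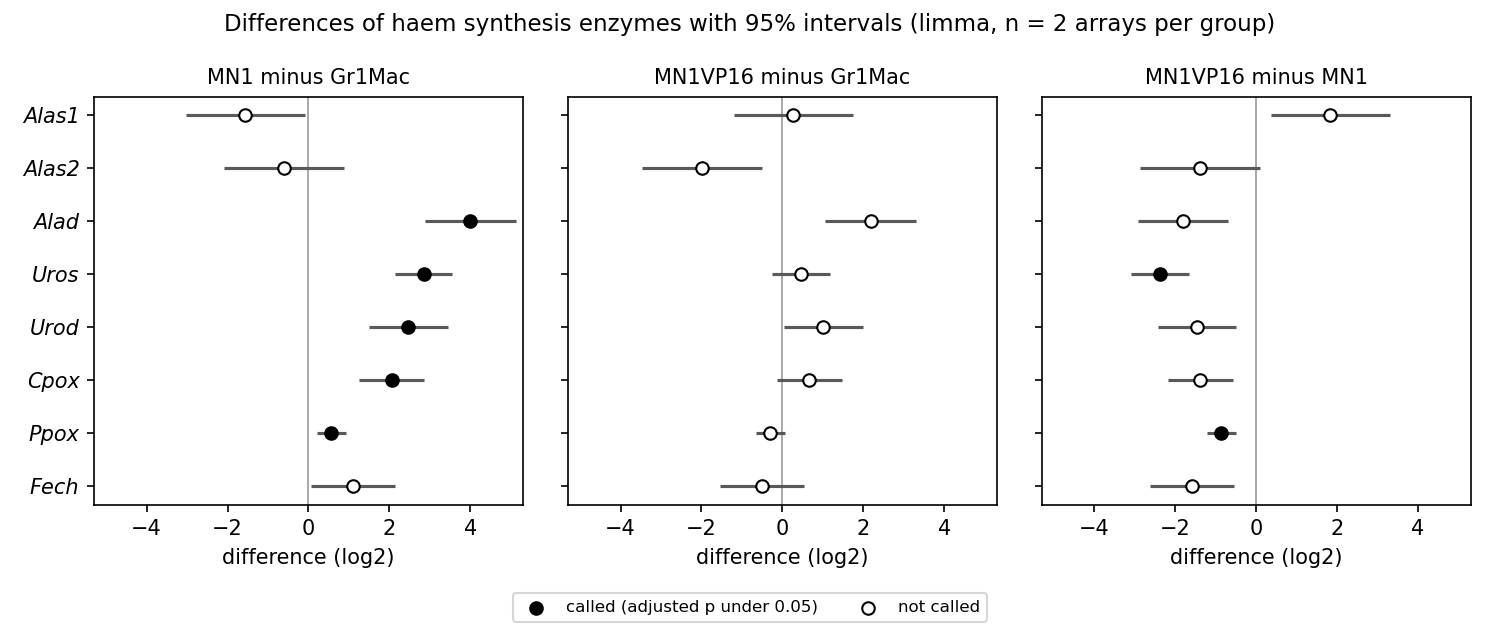
Differences of the 8 enzymes in log2 units for the 3 comparisons (MN1 and MN1VP16 each less Gr1Mac, and MN1VP16 less MN1), with limma's 95% intervals and calls marked. MN1 minus Gr1Mac is called for Alad (4.00), Uros (2.84), Urod (2.47), Cpox (2.05) and Ppox (0.57), and MN1VP16 minus MN1 for Uros (-2.38) and Ppox (-0.86).

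The third comparison set cells with the MN1VP16 vector against cells with the MN1 vector. Uros and Ppox fell in MN1VP16, so limma called 2 of 8 lower and 0 higher, where 2.7% of all genes were called lower and 1.15% higher (3.85% either way). At an unadjusted p under 0.05 there were 6 lower and 1 higher, again without a share over all genes. The median difference was -1.43 log2 units, against 0.03 over all genes. In 7 of the 8 both MN1VP16 arrays lay below both MN1 arrays, against 29.2% of all genes, and in Alas1 both lay above, against 30.5%.

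Uros was 5.21-fold lower in MN1VP16 (95% interval 3.19 to 8.53, adjusted p = 0.0237). The call held in 8 of 11 distinct fits. It was lost without MN1 array 2 (-2.00 log2 units, adjusted p = 0.121), without MN1VP16 array 2, which is here the same fit as the split of the control features (-2.40, 0.0642), and with the sex-linked pattern as a term (-1.97, 0.288). With that last term limma called 0 of all genes in this comparison, and 2501 had an unadjusted p under 0.05. MN1 and MN1VP16 each hold a single sex-linked pattern, so the term was set by the difference between the 2 Gr1Mac arrays alone. Ppox was 1.81-fold lower (1.41 to 2.34, adjusted p = 0.0426), and its call held in 2 of 11 distinct fits and was lost without any one of the 6 arrays, at adjusted p of 0.0564 to 0.284. The other members were not called. Cpox differed by -1.38 ± 0.33 log2 units (adjusted p = 0.0786), Alad by -1.81 ± 0.46 (0.0886), Fech by -1.59 ± 0.42 (0.0994) and Urod by -1.46 ± 0.40 (0.104). Cpox passed without MN1 array 1 (-1.85, adjusted p = 0.0446), and Alad passed in the fit of only the 4 arrays compared (0.0469). Alas2 differed by -1.39 ± 0.61 (0.25) and Alas1 by 1.83 ± 0.60 (0.146). Single arrays moved both: leaving out each of the 6 arrays in turn gave -2.03 to -0.75 for Alas2 (without MN1 array 1 and without MN1 array 2) and 1.01 to 2.66 for Alas1 (without MN1VP16 array 2 and without MN1VP16 array 1). With the sex-linked pattern as a term the differences were -0.13 for Alas2, -0.38 for Alad, -0.49 for Urod and -0.66 for Fech. They were -1.73 for Cpox, -0.90 for Ppox and 1.93 for Alas1, and none of these was called. All these shifts come from the Gr1Mac arrays, so the part of sex in the differences between the vectors was not tested.

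The further probe sets of the members gave further readings of the same RNA. Over the 19 probe sets, 10 were called higher in MN1 than in Gr1Mac, 1 lower and 8 not, where 15.0% of all single-gene probe sets were called higher and 11.6% lower. In MN1VP16 against Gr1Mac 2 were called higher and 0 lower (3.12% and 2.31% of all), and in MN1VP16 against MN1 4 were called lower and 0 higher (2.34% and 0.913%). The 2 called higher in MN1VP16 were the bright probe set of Alad, at an adjusted p of 0.0494 in this wider fit, and the second probe set of Cpox, which lies under the background guide in both of those groups.

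All 3 probe sets of Cpox were called higher in MN1 than in Gr1Mac. The second one read 7.12 and 7.64 in MN1, 5.23 and 5.34 in MN1VP16, against 3.50 and 3.88 in Gr1Mac. Its MN1VP16 and Gr1Mac readings lie under the background guide. It was called higher in MN1 than in Gr1Mac (at least 2.92-fold, adjusted p = 0.000945) and lower in MN1VP16 than in MN1 (at least 2.92-fold, adjusted p = 0.0186). Limma also called MN1VP16 against Gr1Mac (0.024), a call between groups that both lie under the guide, for which no fold is given. The MN1VP16 readings lie above the highest Y-linked reading of 4.05 on arrays with high Xist, and the Gr1Mac readings lie below it. The remaining one read 5.72 and 6.60 in MN1, 3.93 and 3.94 in MN1VP16, against 3.44 and 3.59 in Gr1Mac. Its MN1VP16 and Gr1Mac readings, and the lower MN1 reading, again lie under the guide. It was called higher in MN1 than in Gr1Mac (at least 1.25-fold, adjusted p = 0.00244) and lower in MN1VP16 than in MN1 (at least 1.25-fold, adjusted p = 0.0262).

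The 2 probe sets of Urod moved alike, with differences between MN1 and Gr1Mac of 2.47 and 1.89 log2 units, both called. The second probe set of Uros, at 5.97 and 5.96 in MN1, 5.35 and 5.46 in MN1VP16, against 4.53 and 5.08 in Gr1Mac, was called higher in MN1 (at least 1.10-fold, adjusted p = 0.0104) and lay near the guide. The second probe set of Alad was dim on every array, from 4.27 to 5.27, and was not called. Both probe sets of Alas1 ran the same way, -1.56 and -1.33 between MN1 and Gr1Mac and 1.83 and 1.65 between MN1VP16 and MN1, and neither was called. Alas2 had 1 probe set.

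The probe sets of Fech and of Ppox differed in direction or call. For Fech, the second probe set read 10.16 and 10.98 in MN1, 9.13 and 8.62 in MN1VP16, against 9.18 and 8.54 in Gr1Mac, and was called higher in MN1 than in Gr1Mac (1.71 log2 units, adjusted p = 0.0164), where the brightest probe set was not. Another had a difference of 1.41 (0.0763). The dimmest was called lower in MN1 (-1.20, adjusted p = 0.00519), and it read between 4.11 and 5.52 on the 6 arrays, under the guide throughout. Only the brightest of the 3 Ppox probe sets was called, and the other 2 differed between MN1 and Gr1Mac by -0.04 and 0.40 log2 units. With a gene taken as the mean of its probe sets, Ppox lost both of its calls (adjusted p = 0.175 against Gr1Mac and 0.104 for MN1VP16 against MN1).

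**Figure D3:**
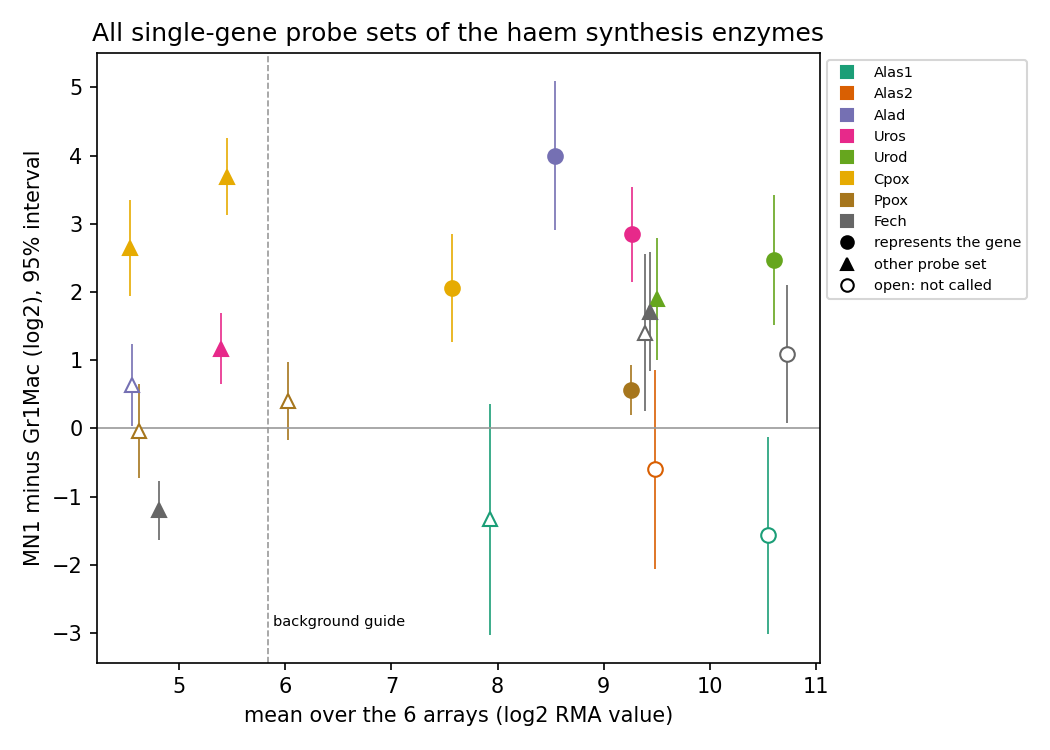
MN1 minus Gr1Mac in log2 units (vertical axis, with 95% intervals) against the mean over the 6 arrays (horizontal axis) for the 19 single-gene probe sets, coloured by gene, with open symbols where limma made no call and a dashed line at the background guide of 5.84. All 3 Cpox probe sets and both Urod and Uros probe sets are called higher in MN1 than in Gr1Mac, and the 4 Fech probe sets run from -1.20 to 1.71.

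Arrays of 1 group also differed from each other, and most of the enzymes shared the direction. In MN1, array 2 was higher than array 1 for 7 of the 7 members other than Alas1, while Alas1 was 1.17 log2 units higher on array 1. In MN1VP16, array 1 was higher for 6 of the 7, Uros being the exception, while Alas1 was 1.66 lower on array 1. In Gr1Mac, array 1 was higher for 5 of the 7, and Alas1 differed by 0.10. Over all genes, 49.3%, 52.0% and 53.6% were higher on array 1 of MN1, MN1VP16 and Gr1Mac. The mean of the 6 enzymes after the first step was 10.29 and 10.87 log2 units in MN1, 9.16 and 8.84 in MN1VP16, against 8.69 and 8.13 in Gr1Mac.

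Red cell markers moved with the mean of the 6 later enzymes. The first-step genes had other orders of group means: Alas1 was lowest in MN1 and Alas2 was highest in Gr1Mac. Of 20 measured erythroid membrane and enzyme genes, 17 rose in MN1 against Gr1Mac and 0 fell, with a median difference of 3.45 log2 units. In MN1VP16 against Gr1Mac 7 rose and 0 fell (median 1.36), and in MN1VP16 against MN1 10 fell and 0 rose (median -2.54). At an unadjusted p under 0.05 the counts were 17 higher and 0 lower, 11 and 2, and 0 and 18. Their mean level was 9.61 and 10.47 log2 units in MN1, 8.11 and 7.47 in MN1VP16, against 6.62 and 6.30 in Gr1Mac, the same order of the 6 arrays as the mean of the later enzymes. Epor, the erythropoietin receptor, was 8.19-fold higher in MN1 than in Gr1Mac (adjusted p = 0.00217) and 5.95-fold lower in MN1VP16 than in MN1 (0.024). Car1, a carbonic anhydrase of red cells, was at least 207-fold higher in MN1 and at least 20.6-fold higher in MN1VP16 than in Gr1Mac. In RNA from mixed cells, fewer cells of a type and less RNA per cell cannot be told apart, and the part of red cell precursors in the enzymes' differences was not tested.

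Markers of other cells moved too. Of 16 granulocyte and monocyte markers, 12 fell and 0 rose in MN1 against Gr1Mac (median -1.93), 1 fell in MN1VP16 against Gr1Mac, and 5 rose in MN1VP16 against MN1. At an unadjusted p under 0.05, 0 were higher and 15 lower in MN1 against Gr1Mac. Their mean level was 11.89 and 11.19 in MN1, 12.94 and 12.65 in MN1VP16, against 13.42 and 13.31 in Gr1Mac. Gr1Mac cells were sorted for Gr1 and CD11b, so falls of such markers against them are not independent of that sort. Itgam, which encodes CD11b, fell in MN1 (-3.62) and in MN1VP16 (-1.77). Ms4a6c, a monocyte gene, was 10.1-fold higher in MN1VP16 than in MN1. Of 9 mast cell and basophil markers, 4 rose in MN1 and 2 in MN1VP16 against Gr1Mac, and limma called 0 between MN1VP16 and MN1 (3 lower at an unadjusted p under 0.05). Cpa3, a mast cell protease, was at least 152-fold higher in MN1 and at least 95.4-fold higher in MN1VP16 than in Gr1Mac. Of 10 megakaryocyte and platelet markers, 3 rose and 2 fell in MN1 and 1 fell in MN1VP16 against Gr1Mac, and limma called 0 between the vectors (1 higher and 2 lower at an unadjusted p under 0.05). Of 10 B, T and NK cell markers, 1 fell in MN1 and 1 rose in MN1VP16 against Gr1Mac, and 1 rose in MN1VP16 against MN1. Of 4 sex-linked markers limma called 0 in every comparison, while at an unadjusted p under 0.05 there were 1 higher in MN1 against Gr1Mac, and 3 higher and 1 lower in MN1VP16 against MN1. Gr1Mac array 1 had high Xist and array 2 had high Kdm5d, and the fit counts that difference as spread. The lack of calls thus does not stand for like levels of these markers.

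**Figure D4:**
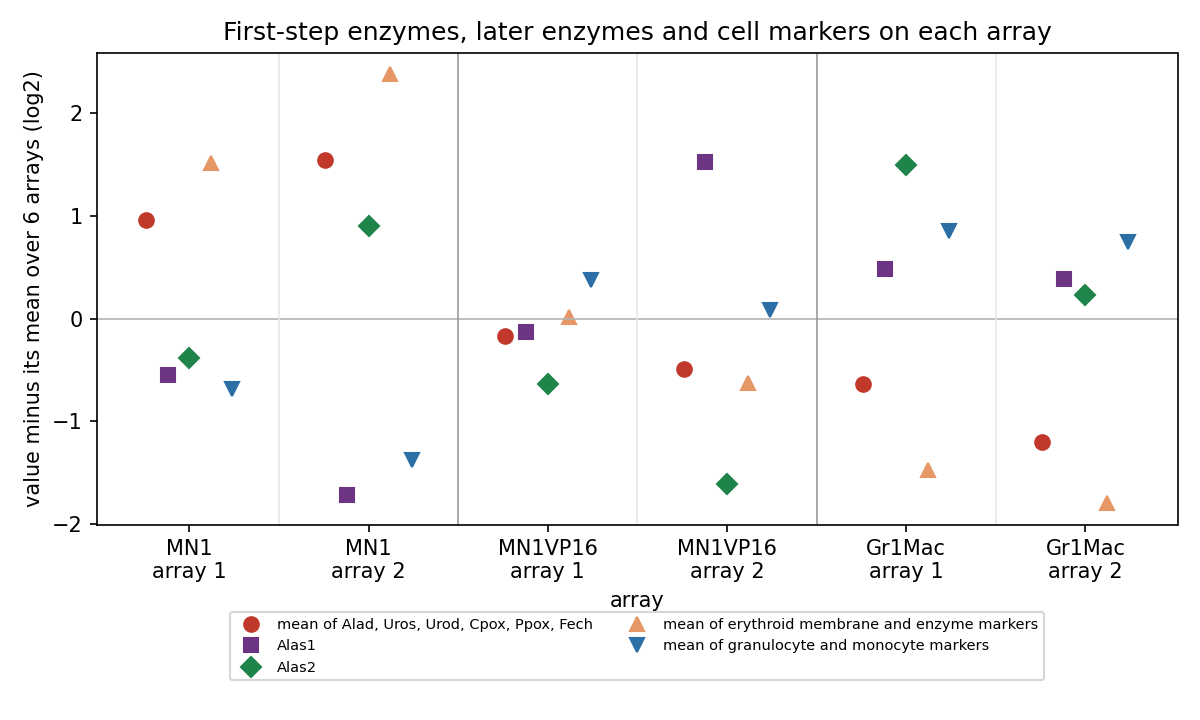
Each value less its mean over the 6 arrays, in log2 units, on each array, for Alas1, Alas2, the mean of the 6 enzymes after the first step, and the means of the erythroid and of the granulocyte and monocyte markers. The later enzymes and the erythroid markers stand above 0 on both MN1 arrays and below 0 on both Gr1Mac arrays, the granulocyte and monocyte markers stand the other way, and Alas1 is highest on MN1VP16 array 2 (12.08) and lowest on MN1 array 2 (8.83).

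Gata1, Klf1 and Tal1, regulators of red cell genes, had the same order of group means as Alad and Urod. Gata1, a factor that binds the GATA letters, read 11.53 and 12.11 in MN1, 9.49 and 7.97 in MN1VP16, against 6.88 and 6.72 in Gr1Mac. It was 32.5-fold higher in MN1 than in Gr1Mac (adjusted p = 0.00188) and 8.52-fold lower in MN1VP16 than in MN1 (0.0354). Klf1, an activator of red cell genes, was 66.9-fold higher in MN1 and 7.26-fold higher in MN1VP16 than in Gr1Mac, and 9.21-fold lower in MN1VP16 than in MN1. Tal1, a partner of Gata1, was 44.7-fold higher in MN1 than in Gr1Mac and 8.50-fold lower in MN1VP16 than in MN1. Gata2, the GATA factor of earlier progenitors and mast cells, was at least 66.3-fold higher in MN1 and at least 23.6-fold higher in MN1VP16 than in Gr1Mac. Gfi1b, a repressor of the red cell and platelet lines, had the largest fall between MN1VP16 and MN1 in this list, 10.2-fold. Among all 23 transcription factors and haem-responsive regulators listed, 9 rose and 5 fell in MN1 against Gr1Mac, 4 rose and 2 fell in MN1VP16 against Gr1Mac, and 5 fell and 0 rose in MN1VP16 against MN1 (8 and 2 at an unadjusted p under 0.05). Bach1, a repressor that haem inactivates, and its partner Mafg fell 2.34-fold and 2.94-fold in MN1 against Gr1Mac (adjusted p = 0.0044 and 0.00402). Nfe2 fell in MN1 (-1.25) and in MN1VP16 (-1.30) against Gr1Mac. Eif2ak1, a kinase that haem restrains, differed by 0.03 log2 units and was not called.

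Globin genes gave a single call. By limma 0 of the 6 measured rose in any comparison, and 1 fell, Hba-a2 in MN1 against Gr1Mac (-1.27 log2 units, adjusted p = 0.0136). At an unadjusted p under 0.05 there were 2 higher and 2 lower in MN1 against Gr1Mac, 0 and 1 in MN1VP16 against Gr1Mac, and 0 and 1 in MN1VP16 against MN1. Hba-a2 encodes an alpha chain and has a near-identical copy, Hba-a1, so its reading is uncertain. Its values were 8.69 and 8.10 in MN1, 8.98 and 8.65 in MN1VP16, against 9.79 and 9.53 in Gr1Mac. Of the 6, 3 were at or under the background guide on every array (Hba-a1, Hba-x and Hbb-y), Hba-a1 at 4.02 to 4.75. Hbb-b2, a beta chain chosen for mention after its values were seen, read 8.68 and 8.42 in MN1, 8.54 and 7.92 in MN1VP16, against 6.98 and 7.86 in Gr1Mac, and was not called (1.13 log2 units for MN1 minus Gr1Mac, adjusted p = 0.057). Of the 10 genes listed, 4 had no single-gene probe set here: the beta chains Hbb-b1, Hbb-bs and Hbb-bt, and the chaperone Ahsp. The counts do not cover these 4.

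Of 14 genes for precursor supply and mitochondrial transport, 7 rose and 0 fell in MN1 against Gr1Mac (9 and 2 at an unadjusted p under 0.05, median 0.77 log2 units), 3 rose in MN1VP16 against Gr1Mac, and by limma 0 were called in MN1VP16 against MN1 (1 higher and 6 lower at an unadjusted p under 0.05). Shmt2, which makes glycine from serine in mitochondria, was 11.8-fold higher in MN1 and 8.13-fold higher in MN1VP16 than in Gr1Mac. Suclg2, a subunit of succinyl-CoA synthetase, was 10.4-fold higher in MN1 and 4.30-fold higher in MN1VP16. Abcb10, a carrier of the inner mitochondrial membrane needed for haem synthesis in red cells, was 6.94-fold higher in MN1 than in Gr1Mac (adjusted p = 0.00333). The glycine carrier Slc25a38 differed by 0.32 log2 units and the mitochondrial iron carrier Slc25a37 by -0.92 (adjusted p = 0.0643), and neither was called.

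Of 17 genes for the uptake, storage, export and sensing of iron, 5 rose and 4 fell in MN1 against Gr1Mac, 2 rose and 1 fell in MN1VP16 against Gr1Mac, and 1 rose and 3 fell in MN1VP16 against MN1. The transferrin receptor Tfrc, which brings iron into the cell, read 11.98 and 12.29 in MN1, 10.46 and 10.64 in MN1VP16, against 9.09 and 9.14 in Gr1Mac. It was 8.09-fold higher in MN1 and 2.71-fold higher in MN1VP16 than in Gr1Mac, and 2.99-fold lower in MN1VP16 than in MN1, called each time. Tfr2, a second transferrin receptor, was 21.6-fold higher in MN1 than in Gr1Mac and 7.39-fold lower in MN1VP16 than in MN1. Steap4, a metalloreductase, was at least 6.68-fold lower in MN1 than in Gr1Mac (adjusted p = 0.0255). Slc40a1, the iron exporter, was 7.06-fold lower in MN1VP16 than in Gr1Mac (adjusted p = 0.0276). Hfe, which takes part in iron sensing, was 4.11-fold higher in MN1VP16 than in MN1 (adjusted p = 0.0476). Mammalian Fech carries an iron-sulphur cluster. Of 11 genes for the assembly of such clusters, 6 rose and 1 fell in MN1 against Gr1Mac (median 1.59), 1 rose in MN1VP16 against Gr1Mac, and by limma 0 were called between the vectors (0 higher and 6 lower at an unadjusted p under 0.05). Hspa9, a mitochondrial chaperone of that assembly, was 13.4-fold higher in MN1 and 6.23-fold higher in MN1VP16.

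Genes that break down, move or use haem gave mixed counts. Of 12 for breakdown, export and uptake, 7 rose and 2 fell in MN1 against Gr1Mac, and 1 rose in MN1VP16 against Gr1Mac. Between the vectors limma called 0 (1 higher and 3 lower at an unadjusted p under 0.05). The 2 that fell were the haem oxygenases, Hmox1 (4.30-fold lower, adjusted p = 0.00402) and Hmox2 (-0.73 log2 units), the enzymes that open the haem ring. Lrp1, a receptor that takes up haem bound to haemopexin, was 8.65-fold higher in MN1 and 13.6-fold higher in MN1VP16. The haem exporter Flvcr1 differed by -0.93 log2 units in MN1 against Gr1Mac (adjusted p = 0.119). Of 14 haem proteins or related oxidases of myeloid cells, 2 rose and 5 fell in MN1 against Gr1Mac and 1, the lipoxygenase Alox5, fell in MN1VP16 against Gr1Mac. Between the vectors limma called 0 (2 higher and 2 lower at an unadjusted p under 0.05). Cybb, the haem-bearing subunit of the phagocyte oxidase, was 6.54-fold lower in MN1 than in Gr1Mac, and Ptgs2, a haem-dependent cyclooxygenase, was at least 10.6-fold lower. Mpo, the granule peroxidase, differed by 0.11 log2 units in MN1 and 1.43 in MN1VP16 against Gr1Mac and was not called. Of 12 genes for mitochondrial cytochromes and their haem attachment, 5 rose in MN1 and 1 in MN1VP16 against Gr1Mac. Between the vectors limma called 0 (0 higher and 2 lower at an unadjusted p under 0.05). Cycs, cytochrome c, rose 2.49-fold in MN1 and 1.96-fold in MN1VP16.

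The genes most like the first-step enzymes over the arrays were sought among 6893 genes that ranged over at least 1 log2 unit, as a description over 6 arrays in 3 groups. For Alas1 these were Atp8b4 (Pearson r = 0.999), Ncoa4 (0.995), Arsb (0.986), Irf1 (0.983) and Tigar (0.981). Ncoa4, which leads the iron store ferritin to breakdown, read 11.85 and 11.33 in MN1, 11.94 and 12.82 in MN1VP16, against 12.35 and 12.30 in Gr1Mac. For Alas2 they were Rad52 (0.996), Bpgm (0.983), Slc39a4 (0.977), Slc41a3 (0.973) and Ccdc189 (0.970). Bpgm, which makes the haemoglobin effector bisphosphoglycerate in red cells, read 9.12 and 10.26 in MN1, 8.62 and 7.81 in MN1VP16, against 11.19 and 10.17 in Gr1Mac. Like Alas2 it was called in no comparison, at -0.99 log2 units for MN1 and -2.46 for MN1VP16 against Gr1Mac (adjusted p = 0.218 and 0.0521).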

How the data were processed

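RNA of sorted mouse marrow cells had been hybridised to 6 Affymetrix mouse arrays after 3' IVT labelling, per the labels' protocols. The authors deposited log2 values per probe set made with RMA, per the submitters' processing notes; its version and a genome build are not given in the sources used here. Since RMA gives all arrays one distribution, it hides shifts in total RNA, and no detection calls or scanner intensities were used. Of 45101 lines, 64 were control features; 34945 probe sets named 1 gene, 932 several and 9160 none, and only the first kind was used. RefSeq gene numbers matched 34741 and changed 0 symbols. A gene was its brightest probe set by mean over all arrays (18193 genes, 9010 with several). The further probe sets of a gene can differ in the transcripts they detect.

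Linear fits used limma (version 3.58.1, lmFit and eBayes, under R 4.3.3) on all 6 arrays with group as the only term, with 3 residual and 3.03 prior degrees of freedom. P-values were adjusted over all genes by Benjamini-Hochberg, with calls at 0.05; probe sets were fitted likewise. Folds are antilogs of log2 differences and carry 95% intervals. The number of arrays limits precision: an exact permutation test of 2 against 2 cannot fall below 0.333. The pipeline was tested on simulated data. Replicate numbers in the labels did not pair arrays: the correlations of array differences between groups were -0.05, -0.05 and 0.08.

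Besides the members, 14 lists of 202 entries (178 genes measured) were counted: precursor supply and transport, iron, iron-sulphur clusters, haem breakdown, globins, regulators, mitochondrial cytochromes, myeloid haem proteins, and markers of erythroid, granulocyte and monocyte, megakaryocyte, mast, lymphoid and sex-linked kind. Named genes were all members, the called gene of largest difference each way in each list, a fixed set of regulators, transporters and markers, and the 5 genes most like Alas1 or Alas2; some others (Epor and Suclg2) were picked as examples once their values were known. The members and lists were chosen with earlier results of these data known. Alternatives were the mean of probe sets, all probe sets, no dim genes, limma-trend, array centring, fewer arrays, a replicate block, the sex-linked pattern, each array left out, and the split of the control features.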

Additional observations from a re-analysis of the deposited data

How the results depend on the processing

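Of 336 member differences under 14 alternatives (all probe sets aside), 287 kept their sign and side of the threshold, 13 gained and 32 lost a call, and 4 changed sign. The sign changes were Alas2 in MN1 minus Gr1Mac without MN1 replicate 1 (0.042) and without Gr1Mac replicate 1 (0.032), where leaving out each array gave -1.24 to 0.042; Alas1 in MN1VP16 minus Gr1Mac without MN1VP16 replicate 2, where leaving out each array gave -0.56 to 1.10; and Alas1 in MN1 minus Gr1Mac with the split of the control features (0.092). For MN1 minus Gr1Mac, the count called higher (5) was 1 with the split of the control features and 4 whichever array was left out; the count called lower (0) was 1 over all probe sets, 1 with only the 4 arrays compared, and 0 to 1 without an array. For MN1VP16 minus Gr1Mac, the count higher (0) was 2 over all probe sets, 1 without the dimmest 40% of genes, with limma-trend, with centred arrays and with the sex-linked term, and 0 to 1 without an array. For MN1VP16 minus MN1, the count lower (2) was 1 with limma-trend, 1 with the replicate block, 0 with the sex-linked term, 0 with the split, and 0 to 2 without an array. The causes were not tested. Settings that gave one and the same fit are counted separately here. Leaving out an array of the group not compared equals using only the 4 arrays compared. The sex-linked term against Gr1Mac equals leaving out 1 Gr1Mac array, and the split for MN1VP16 equals leaving out 1 of its arrays. For MN1VP16 minus MN1 the sex-linked term is set by the Gr1Mac arrays alone. For MN1 minus Gr1Mac the split is set by the MN1VP16 arrays alone. The replicate block cost Ppox both of its calls (adjusted p = 0.0618 and 0.0675) and no other member its call. Over all genes, calls numbered 5334, 1050 and 701 in the 3 comparisons; without an array they ranged over 2418 to 5129, 49 to 1243 and 26 to 498, with the split they were 1486, 441 and 203, with only the 4 arrays compared MN1VP16 minus Gr1Mac gave 347 and MN1VP16 minus MN1 454, with the sex-linked term the count for MN1VP16 minus MN1 was 0 (2501 at an unadjusted p under 0.05), and over all probe sets they were 9277, 1900 and 1138. Centring used each array's median over the 18193 genes (6.24 to 6.54) and shifted the median of all genes by -0.26, -0.21 and 0.05 log2 units.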
